A study of Neurospora crassa with 42 samples.

Results

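Loss of the gene clr-3 was examined in a strain of Neurospora crassa that also lacks os-2, by comparing 3 libraries of the Δos-2Δclr-3 double mutant with 3 libraries of the Δos-2 single mutant. These 6 libraries were taken by genotype, medium and time from the 42 RNA-seq libraries of the study, which fall into 14 groups of 3. Neurospora crassa is a filamentous fungus that lives on plant material. Conidia were grown in 100 ml of Vogel's medium with 2% sucrose at 25 °C, with light and shaking at 200 rpm throughout, for 16 h. The mycelia were then washed and held in Vogel's medium with no carbon source for 10 h. Both strains carry the os-2 deletion, so the single difference the labels give between them is the clr-3 deletion. Wild type, Δclr-3, Δos-1, Δos-1Δclr-3, Δcre-1 and Δcre-1Δclr-3 mycelia, handled in the same way and sampled at the same 10 h, also in 3 libraries each, served for comparison. The labels name each strain as a gene deletion and do not say how many isolates of a strain were used; the design text calls the 3 libraries of a group biological triplicates.

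On cellulose, N. crassa secretes enzymes that cut the polymer to short sugars. The transcription factors CLR-1 and CLR-2 switch on the genes of these enzymes, CLR-1 acting ahead of CLR-2 and raising clr-2 transcription. CLR-3 is known as a repressor that holds CLR-1 inactive when no cellulose signal is present. OS-2 is a mitogen-activated protein kinase, the counterpart of yeast Hog1, and the last kinase of a cascade that responds to high osmolarity; OS-1 is a histidine kinase at the head of that cascade. CRE-1 is the repressor that shuts off genes for poor carbon sources when a better one is present. The title of the study names the joining of osmolarity and carbon sensing, and the comparison asks what clr-3 loss does to a starved culture from which OS-2 is already missing.

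Levels are in FPKM, the fragments of a gene divided by its transcript length and the library's size, as the authors deposited them. A log2 fold change is the difference in log2(FPKM + 1) between the means of the double mutant and Δos-2, with its standard error after the ± sign; an FPKM is followed by the SD over the 3 libraries where ± is given. On this scale the change of a gene with low values is understated. A gene was called higher or lower where limma gave an adjusted p under 0.05 and the log2 fold change was 1 or more in either direction, and all adjusted p values below are from limma. The labels held: clr-3 (NCU05846), left out of every test at 10 h, stood at 1.42, 0.960 and 1.42 FPKM in the double mutant and at 23.0, 23.0 and 21.5 in Δos-2. It was lower still in the other 3 strains without clr-3, with means of 0.123 to 0.456 FPKM, and at means of 22.5 to 27.1 in the 4 strains that keep it. The gene os-2 stood at 4.41, 5.56 and 4.28 FPKM in the double mutant and 8.52, 5.82 and 5.70 in Δos-2, against 215 ± 16.1 in wild type. The 2 strains deleted for os-1 averaged 5.04 and 3.97 FPKM of os-1, where wild type had 178, and the 2 deleted for cre-1 averaged 1.24 and 2.42 FPKM of cre-1, where wild type had 37.8. The depth implied by the width of the authors' FPKM bounds was 18800000 to 24400000 fragments in these 6 libraries.

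Of 8013 genes tested, 611 (7.63%) were called, 245 (3.06%) higher and 366 (4.57%) lower in the double mutant than in Δos-2. The median over all genes tested was -0.38 on the log2 scale, so an average gene was lower in the double mutant. The median FPKM of a gene was 9.6 to 9.96 in the double mutant libraries and 12.6 to 13 in the Δos-2 libraries. Over the same libraries, 3 lists of enzymes that act on cellulose and hemicellulose took 13.2, 15.5 and 11.7% of all FPKM in the double mutant, against 0.0848, 0.0809 and 0.0807% in Δos-2. The part of these enzyme transcripts in the lower level of the other genes was not tested. After the libraries were rescaled by median ratios, the all-gene median was -0.01 and the split turned to 504 called (6.29%), 380 higher (4.74%) and 124 lower (1.55%). All 245 genes called higher remained higher after rescaling, and 124 of the 366 called lower remained lower. A gene is therefore described below as lower under both scalings only where its call held in both.

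The regulators of plant cell wall degradation come first. Of the 15 genes on this list, 2 rose and 1 fell, with a median of 0.11, against 3.06% and 4.57% of all genes and a median of -0.38. The gene clr-2 (NCU08042; chromosome IV, 4001190 to 4004643, build NC12), the activator of cellulase genes, stood at 2.27, 2.22 and 2.61 FPKM in the 3 Δos-2 libraries and at 187, 191 and 168 in the 3 double mutant libraries. The groups did not overlap, and clr-2 rose by 5.76 ± 0.14 on the log2 scale (adjusted p = 7.38e-18). The gene xlr-1, which encodes the activator of xylan-degrading enzymes, rose from 41.9, 40.7 and 41.4 FPKM in Δos-2 to 115, 122 and 103 in the double mutant, with 1.43 ± 0.08 (adjusted p = 5.09e-12) on the log2 scale. The gene clr-1, whose product acts ahead of CLR-2, stood at 29.2, 26.5 and 26 FPKM in Δos-2 and 51.1, 58.5 and 44.8 in the double mutant. Its log2 fold change of 0.89 ± 0.09 lay under the threshold of 1, and was 1.28 and past it after rescaling. For vib-1, a transcription factor needed for growth on cellulose, the log2 fold change was 0.57 ± 0.08 and was not called under either scaling.

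The regulators with lower values were rca-1 and cre-1. The gene rca-1, which encodes a Myb-type transcription factor, fell from 43.6, 40.1 and 38.3 FPKM in Δos-2 to 13.2, 16.4 and 14.9 in the double mutant, with -1.40 ± 0.14 on the log2 scale (adjusted p = 2.43e-08), and was lower under both scalings. The catabolite repressor gene cre-1 stood at 125, 130 and 142 FPKM in Δos-2 and 76.7, 59.4 and 72.7 in the double mutant. The groups did not overlap, but its log2 fold change of -0.92 ± 0.14 was not called. The cre-1 transcript was thus lower in every double mutant library than in any Δos-2 library, by less than the fold required here. Small differences were common: 6496 of the 8013 genes tested had an adjusted p under 0.05 in limma, and the all-gene median was -0.38. The share of all genes whose groups do not overlap was not counted. On the regulator list rca-1 alone was called lower under either scaling.

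**Figure D1:**
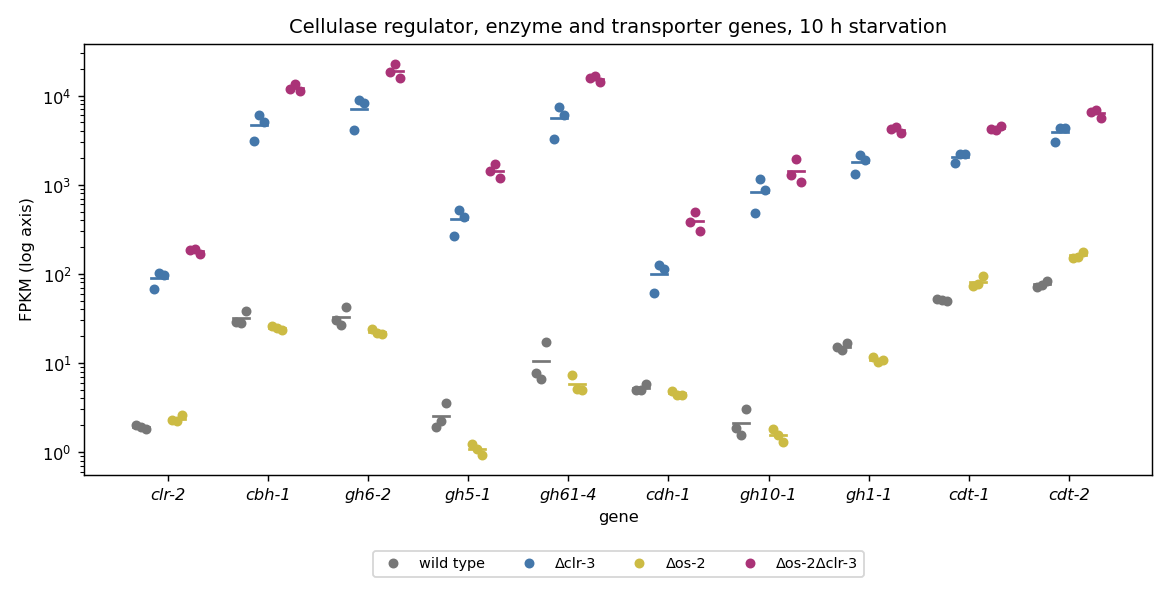
FPKM (log axis) of 10 genes in each of 3 libraries (points) with the group mean (line), for wild type, Δclr-3, Δos-2 and Δos-2Δclr-3 after 10 h without carbon. For each gene the 3 double mutant libraries lie above the 3 Δos-2 libraries, as for cbh-1, with 12228 against 24.7 FPKM.

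Genes for cellulose-degrading enzymes rose together. The list has 14 members, of which 12 passed the filter of a mean of 1 FPKM, and all 12 tested were called higher, and their median was 6.46 on the log2 scale where that of all genes was -0.38. The filter spans 24 libraries and can admit a gene through the group in which it is high. The 2 members under the filter were gh6-1, at or below 0.0961 FPKM in all 6 libraries, and gh7-4, at 0.596, 0.304 and 0.443 FPKM in Δos-2 and 2.24, 2.21 and 2.21 in the double mutant. The cellobiohydrolases, which release cellobiose from chain ends, reached the highest levels. The gene cbh-1 (NCU07340; chromosome IV, 4311049 to 4314145) rose from 26.3, 24.5 and 23.4 FPKM in Δos-2 to 11968, 13583 and 11134 in the double mutant, with 8.89 ± 0.23 (adjusted p = 1.37e-17) on the log2 scale. The gene gh6-2 (NCU09680; chromosome V, 858215 to 859731) rose from 24.1, 21.9 and 20.9 FPKM to 18514, 22906 and 15942, a log2 fold change of 9.67 ± 0.30 (adjusted p = 1.45e-16). In the double mutant gh6-2 had the higher level of the pair in each library, whereas in Δos-2 it was at or below cbh-1 in each.

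The endoglucanase gene gh5-1, whose product cuts within the chain, stood near 1 FPKM in Δos-2, at 1.23, 1.09 and 0.915, and reached 1418, 1697 and 1176 FPKM in the double mutant, a log2 fold change of 9.42 ± 0.25 (adjusted p = 1.84e-17). Of the same glycoside hydrolase families as gh6-2 and cbh-1, gh6-3 rose by 7.96 ± 0.24 and gh7-1 by 8.44 ± 0.21. Among β-glucosidase genes, gh1-1, which encodes the intracellular enzyme that splits imported cellodextrins to glucose, went from 11.5, 10.1 and 10.8 to 4214, 4436 and 3796 FPKM, with 8.45 ± 0.14 (adjusted p = 9.58e-21) on the log2 scale. The extracellular β-glucosidase gene gh3-4 rose by less, at 4.38 ± 0.26. The other 5 tested members, gh3-3, gh3-6, gh45-1, gh7-2 and NCU05751, had log2 fold changes of 1.34 to 4.97.

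Lytic polysaccharide monooxygenases (LPMOs) break cellulose by oxidation, and cellobiose dehydrogenase passes them electrons. Of the 13 genes of this list tested, out of 15 members, 10 were called higher and none lower, with a median of 6.13. The LPMO gene gh61-4 (NCU01050; chromosome V, 2769232 to 2770004) had the highest fold of all genes named here. It stood at 7.32, 5.05 and 4.90 FPKM in Δos-2 and 15678, 16728 and 14185 in the double mutant, with 11.18 ± 0.50 (adjusted p = 8.51e-14) on the log2 scale. The cellobiose dehydrogenase gene cdh-1 rose from 4.89, 4.39 and 4.32 to 378, 500.5 and 302 FPKM, a log2 fold change of 6.13 ± 0.20. The LPMO genes gh61-5, gh61-3 and gh61-7 rose by 8.39 ± 0.23, 8.36 ± 0.22 and 8.28 ± 0.27, and the other 5 called members by 1.37 to 7.13. Not every gene of the family moved: gh61-8, gh61-9 and NCU07974 gave -0.46, 0.24 and -0.63 and were not called, and gh61-10 and gh61-11 were under the filter, at no more than 0.19 FPKM in any of the 6 libraries.

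Hemicellulose-degrading enzymes followed with 16 of 22 members higher, 1 lower and a median of 2.91. The xylanase gene gh10-1 rose from 1.82, 1.53 and 1.28 FPKM in Δos-2 to 1272, 1924 and 1084 in the double mutant, with 9.09 ± 0.30 (adjusted p = 5.36e-16) on the log2 scale. The xylanase gene gh11-2 rose from 3.15, 2.24 and 2.27 to 2779, 3469 and 2448 FPKM, a log2 fold change of 9.67 ± 0.29. NCU08785 and NCU04870 rose by 8.22 ± 0.30 and 7.18 ± 0.27, the latter from 0.206, 0.139 and 0.0897 to 161, 243 and 114 FPKM. NCU09664 was listed at 0 in all 3 Δos-2 libraries and at 6.42, 11.6 and 5.80 FPKM in the double mutant; without it the median of the list is 2.72. The other 11 members that rose did so by 1.25 to 6.81. The xylanase-family gene gh10-4 went the other way, from 49.1, 47.7 and 57.3 to 19.8, 17.6 and 28.7 FPKM, with -1.21 ± 0.29 on the log2 scale, and lost its call after rescaling. In wild type it stood at 0.5 FPKM, so its level in Δos-2 was far above that of the wild type.

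Genes for breaking down pectin, the other main matrix polysaccharide of plant cell walls, moved less. Of 8 tested, out of 9 members, 3 were higher and none lower, where 3.06% of all genes were higher. The list median was -0.01 and that of all genes -0.38. They were NCU08176 at 3.79 ± 0.26, asd-1, which encodes a rhamnogalacturonase-like protein, at 1.52 ± 0.15, and NCU09924 at 1.06 ± 0.13. Levels stayed low: asd-1 went from 3.47, 3.33 and 3.65 FPKM to 11.2, 16.7 and 8.97. For NCU09924 the change fell to 0.94 and the call was lost without double mutant replicate 2.

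The 3 members of the cellodextrin transporter list all rose. Whether NCU05853, its member without a gene symbol, carries cellodextrins is not shown by these data. The transporter gene cdt-1 (NCU00801) went from 73.8, 77.7 and 93.5 FPKM in Δos-2 to 4198, 4101 and 4557 in the double mutant, with 5.70 ± 0.11 (adjusted p = 1.6e-19) on the log2 scale. The transporter gene cdt-2 (NCU08114) went from 152, 156 and 175 to 6538, 6956 and 5644 FPKM, a log2 fold change of 5.30 ± 0.14. NCU05853 went from 345, 357 and 321 to 3102, 2959.8 and 2709 FPKM, a log2 fold change of 3.10 ± 0.09. Unlike most enzyme genes, these 3 genes already stood at 73.8 FPKM or more in each Δos-2 library. Of 12 hexose and pentose transporters, 1 rose (NCU06138, 1.90 ± 0.12) and 1 fell (NCU05627, -1.43 ± 0.17). Of all genes, 3.06% were higher and 4.57% lower. After rescaling 2 of the 12 were higher and 1 lower. The list median of -0.48 lay near the all-gene median.

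**Figure D2:**
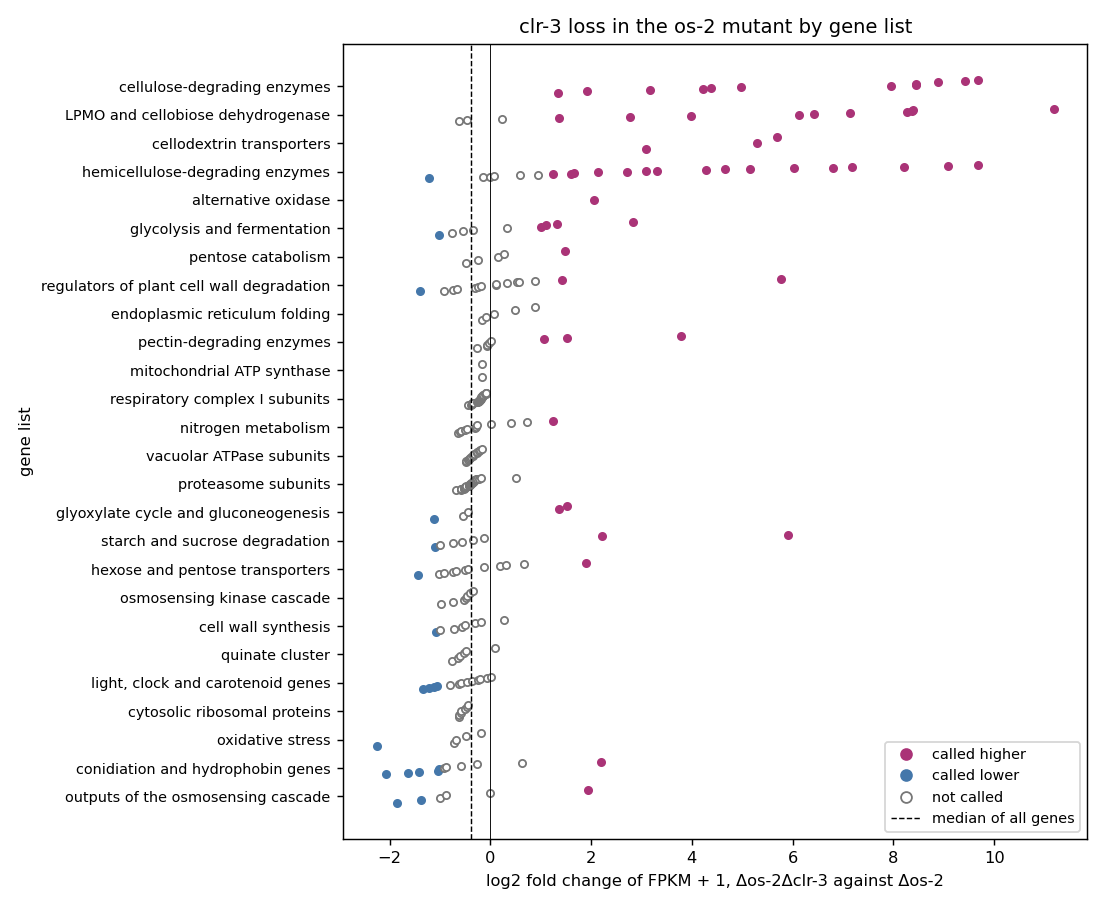
Log2 fold change of FPKM + 1 between Δos-2Δclr-3 and Δos-2 (x axis) for each tested member (point) of 26 gene lists (y axis, ordered by list median), coloured by call; the dashed line is the all-gene median of -0.38. The lists for cellulose, LPMO, hemicellulose and cellodextrin transport hold most of the points above 4, while complex I, vacuolar ATPase, ribosomal and proteasome genes lie close to the dashed line.

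Some genes of sugar and acetate metabolism were higher in the double mutant and others lower. Median changes were -0.45 for starch and sucrose, 0.33 for glycolysis and fermentation and -0.44 for the glyoxylate cycle, against -0.38 for all genes. Of all genes, 3.06% were higher and 4.57% lower. Of 8 genes for starch and sucrose degradation, 2 rose, inv, which encodes invertase, at 2.21 ± 0.20 and NCU08746 at 5.91 ± 0.17, and gh31-3 was lower at -1.09 ± 0.08, a call lost after rescaling. The level of inv went from 236, 264 and 298 to 1220.1, 1039 and 1475 FPKM. Of 9 genes of glycolysis and fermentation, 4 rose and 1 fell. The gene cfp, which encodes pyruvate decarboxylase, went from 180, 194 and 256 to 1455, 1215 and 1835 FPKM, a log2 fold change of 2.83 ± 0.30. The alcohol dehydrogenase gene adh-1 went from 4502, 5053 and 5298 to 11074, 9288 and 11753 FPKM, at 1.11 ± 0.16. The glyceraldehyde-3-phosphate dehydrogenase gene gpd-1 sat at the threshold with 1.00 ± 0.10, and its call was lost without double mutant replicate 3 (0.91) or Δos-2 replicate 1 (0.95). NCU00575 also rose, at 1.32 ± 0.06, while NCU07550 was lower at -1.01 ± 0.05 and lost that call after rescaling.

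Of 5 genes of the glyoxylate cycle and gluconeogenesis, acu-5, which encodes acetyl-CoA synthetase, rose by 1.53 ± 0.09, and acu-6, which encodes phosphoenolpyruvate carboxykinase, by 1.37 ± 0.27. Levels of acu-6 were 203, 216 and 329 FPKM in Δos-2 and 564, 498 and 891 in the double mutant. The isocitrate lyase gene acu-3 was lower, at -1.12 ± 0.23, from 71.1, 67.5 and 89.8 to 38.4, 24.7 and 42.4 FPKM, and was not called after rescaling. The list thus held both directions. The alternative oxidase gene aod-1, whose product bypasses part of the respiratory chain, rose by 2.06 ± 0.31, from 30.2, 35.1 and 51.1 to 142, 132 and 219.6 FPKM. The nitrite reductase gene nit-6 rose by 1.24 ± 0.12, the single call among 12 genes of nitrogen metabolism, where 3.06% of all genes were higher. The glutamate dehydrogenase gene am stood at 114, 115 and 116 FPKM in Δos-2 and 191, 190.2 and 191 in the double mutant, a change of 0.72 ± 0.16 that was called, at 1.12, after rescaling alone. The xylose reductase gene xr, of 5 genes of pentose catabolism, rose by 1.48 ± 0.10.

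The cascade to which OS-2 belongs showed no call in this contrast. None of its 7 genes was called, with values of -0.98 to -0.34 and a median of -0.49 near the all-gene median. The response regulator gene rrg-2 was nearest to the threshold, from 31.6, 28.6 and 31.8 to 15.0, 15.7 and 14.6 FPKM at -0.98 ± 0.07. Of 6 genes listed as outputs of the cascade, 1 rose and 2 fell, with a median of -0.94, where 3.06% of all genes were higher and 4.57% lower. The trehalose synthase gene ccg-9 went from 6.46, 6.05 and 5.37 to 25.9, 25.8 and 24.5 FPKM, at 1.93 ± 0.11. The blue-light-inducible gene bli-3 went from 277, 288 and 272 to 81.1, 63.9 and 86.9 FPKM, at -1.85 ± 0.10, lower under both scalings. The conidial catalase gene cat-1 was lower at -1.37 ± 0.09, a call lost after rescaling.

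Genes of conidiation and of the conidial surface, which mark conidia and aerial hyphae, included more called lower than higher. Of 11 members, 5 fell and 1 rose, with a median of -0.92, where 4.57% of all genes were lower and the all-gene median was -0.38. After rescaling 3 fell and 2 rose, where 1.55% of all genes were lower. The list took 2.14 to 2.57% of all FPKM in the double mutant and 4.27 to 4.59% in Δos-2. It took 1.77 to 2.24% in wild type and 1.41 to 1.47% in Δclr-3. No member was at 0 in all 6 libraries. The gene eas, which encodes the hydrophobin of conidia and aerial hyphae, went from 17983, 17331 and 18824 FPKM in Δos-2 to 6501, 5670 and 8507 in the double mutant, at -1.41 ± 0.26 (adjusted p = 4.7e-05); it gave -1.01 after rescaling and lost its call, at -1.0, in the authors' whole-series table. In RNA from whole mycelium, fewer cells of a type and less RNA per cell cannot be told apart. The gene fl, which encodes the main activator of conidiation, went from 133, 120.2 and 146 to 33.2, 28.1 and 32.3 FPKM, at -2.06 ± 0.15 (adjusted p = 1.49e-10), lower under both scalings. The conidiation regulator gene acon-3 gave -1.63 ± 0.25 and was also lower under both. The genes csp-2 and con-6 were lower at -1.03 ± 0.14 and -1.01 ± 0.23 but lost these calls after rescaling.

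The gene con-10, itself a classical marker of conidiation, was the one member of its list called higher before rescaling; ccg-6, at 0.63 ± 0.11, was also called higher after it, at 1.03. Levels of con-10 were 139.9, 156 and 154 FPKM in Δos-2 and 744, 702 and 629 in the double mutant, a log2 fold change of 2.2 ± 0.26 (adjusted p = 1.96e-07). In wild type the 3 libraries had 1204, 1214 and 544 FPKM, 1 of them below every double mutant library. Of 13 light, clock and carotenoid genes, 4 were lower, the opsin gene nop-1 at -1.34 ± 0.07, the carotenoid genes al-3 and al-2 at -1.22 ± 0.20 and -1.05 ± 0.09, and the cryptochrome gene cry at -1.11 ± 0.13. None of the 4 was called after rescaling. The list median was -0.58, where that of all genes was -0.38 and 4.57% of all genes were lower. Among 5 oxidative stress genes the catalase gene cat-3 fell, from 9.04, 9.13 and 9 to 0.890, 1.66 and 0.880 FPKM at -2.25 ± 0.20, under both scalings.

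Housekeeping lists stayed near the all-gene median. None of 29 genes of respiratory complex I was called, with values of -0.44 to -0.08, and none of 14 vacuolar ATPase genes, with values of -0.49 to -0.16. The 2 mitochondrial ATP synthase genes, atp-1 and atp-2, were not called, at -0.17 and -0.17. None of 30 proteasome genes was called either, with values of -0.69 to 0.51, nor any of 7 ribosomal protein genes, with values of -0.63 to -0.45. Relative to the all-gene median these 7 ribosomal protein genes stood at -0.25 to -0.07. Of 5 genes of protein folding in the endoplasmic reticulum, through which secreted enzymes pass, none was called. NCU02074 came nearest, at 66.3, 72.3 and 80.4 FPKM in Δos-2 and 142, 108 and 163 in the double mutant (0.89 ± 0.21), and was called after rescaling. The chaperone gene grp78 gave -0.17 ± 0.10. Of 8 cell wall synthesis genes, NCU05239 alone was called, lower at -1.08 ± 0.09, and not after rescaling; none of the 6 quinate genes tested was called.

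Apart from cat-3 and fl, the largest falls named here were in genes outside these lists. The gene app, known for an abundant perithecial protein, went from 149.5, 127 and 150.2 FPKM in Δos-2 to 16.7, 12.2 and 25.9 in the double mutant, at -2.96 ± 0.27 (adjusted p = 4.9e-09). NCU02328 went from 21.7, 20.3 and 19.1 to 1.88, 2.75 and 2.18 FPKM, at -2.72 ± 0.11. The gene ada-6, which encodes a zinc cluster transcription factor of asexual and sexual development, went from 125, 128 and 128 to 27.6, 22.9 and 27.9 FPKM, at -2.24 ± 0.26. NCU09274, NCU06327, NCU06328, NCU04430, NCU03011, NCU04635, NCU09272, NCU05749 and NCU00850 had log2 fold changes of -2.73 to -2.23. Each of these 12 genes was lower under both scalings. That their groups did not overlap was a condition of their choice. Among abundant genes that were lower, NCU01402 went from 1159, 1274 and 1134 to 317, 295 and 332 FPKM, at -1.92 ± 0.19, and held under both scalings. The genes acw-6, for a cell wall protein, and NCU08677 were lower at -1.36 ± 0.12 and -1.15 ± 0.11 but not after rescaling. NCU09734, at -1.15 ± 0.48 (adjusted p = 0.0331), lost its call after rescaling and without any one of 5 of the 6 libraries, when adjusted p ran from 0.0513 to 0.102.

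The same deletion was next compared between backgrounds, using wild type and Δclr-3 libraries that the contrast above does not share. In wild type, clr-3 loss called 445 genes (5.55%), 235 higher (2.93%) and 210 lower (2.62%), and after rescaling 386 (4.82%), 320 higher (4.0%) and 66 lower (0.824%). Of the 245 genes higher in the os-2 mutant, 143 were also higher in wild type, 58.4% of the former and 60.9% of the latter. Of the 366 genes lower in the os-2 mutant, 59 were also lower in wild type, 16.1% of the former and 28.1% of the latter. The difference between the effects was tested as an interaction, the clr-3 effect in the os-2 mutant minus that in wild type, which was called for 370 of 8012 genes (4.62%). It was higher without os-2 for 156 (1.95%) and lower for 214 (2.67%). The overlaps above are of calls before rescaling, and a gene missing from 1 side need not differ between backgrounds. Of the 307 genes lower in the os-2 mutant but not called lower in wild type, 86 had an interaction called lower. Of the 102 higher in the os-2 mutant but not called higher in wild type, 49 had an interaction called higher. After rescaling 366 genes (4.57%) were called, 190 higher (2.37%) and 176 lower (2.2%), and 152 of the 156 and 175 of the 214 kept their call.

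**Figure D3:**
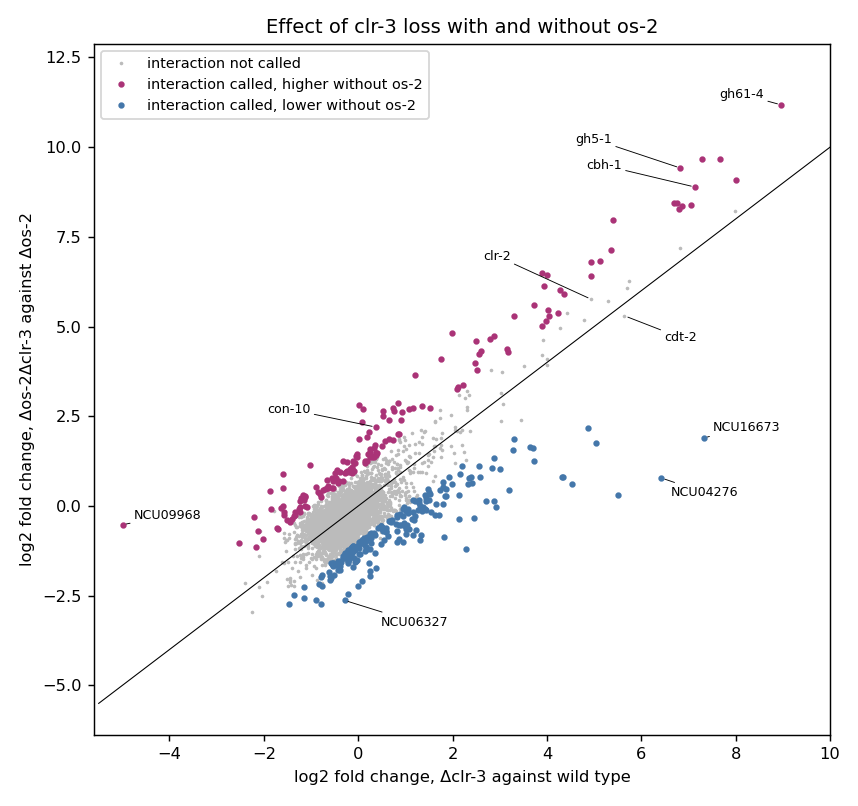
Log2 fold change on clr-3 loss in wild type (x axis) against that in the os-2 mutant (y axis), 1 point per gene, with the line of equal effect; colours mark genes whose interaction was called. The genes with the largest rises lie above the line, as does gh61-4, while a group led by NCU16673 and NCU04276 lies far below it.

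Cellulase genes rose further when os-2 was missing. Of the 12 cellulose genes tested, 8 had an interaction called higher and 1 lower, and of the 13 LPMO and cellobiose dehydrogenase genes 10 were higher, against 1.95% of all genes higher and 2.67% lower. For hemicellulose 11 of 22 were higher and 1 lower. For cbh-1 the log2 fold change was 7.13 ± 0.23 in wild type and 8.89 ± 0.23 in the os-2 mutant, an interaction of 1.76 ± 0.33 (adjusted p = 0.000316). Its levels were 28.9, 28.0 and 38.1 FPKM in wild type, 3058, 6004 and 5089.9 in Δclr-3 and 11968, 13583 and 11134 in the double mutant, without overlap between any of these groups. The interaction was 2.59 ± 0.36 for gh5-1, 2.56 ± 0.34 for gh6-3, 2.18 ± 0.29 for cdh-1 and 2.22 ± 0.70 for gh61-4 (adjusted p = 0.0164). NCU05751, also of the cellulose list, had a lower interaction of -1.53 ± 0.43; it stood at 0.810 FPKM in wild type and 9.91 in Δos-2.

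The levels behind these differences can be set side by side. In Δos-2 and wild type respectively, gh5-1 had means of 1.08 and 2.54 FPKM, gh6-3 had 14.0 and 22.8, and cbh-1 had 24.7 and 31.6. In the double mutant and Δclr-3 respectively, the means were 1430.4 and 409.5, 3749 and 1066, and 12228 and 4717 FPKM. The double mutant was therefore above Δclr-3, and Δos-2 somewhat below wild type, for each of these 3. The same 3 enzyme lists together took 3.36, 6.84 and 6.06% of all FPKM in the Δclr-3 libraries, with replicate 1 lowest, and 0.1 to 0.108% in wild type.

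Among the 15 regulators 1 gene, cre-1, had a called interaction, where 4.62% of all genes had one. Of the 3 members of the cellodextrin transporter list, none had one before rescaling and 1 after it. The interaction was 0.82 ± 0.20 for clr-2 (adjusted p = 0.00317), which lay under the required fold, with 68.2, 102 and 97.1 FPKM in Δclr-3 against 187, 191 and 168 in the double mutant. It was -0.06 ± 0.11 for xlr-1, 0.41 ± 0.12 for clr-1, 0.41 ± 0.16 for cdt-1 and -0.35 ± 0.19 for cdt-2, none of them called. That of NCU05853 was 0.97 ± 0.13 (adjusted p = 1.02e-05), under the required fold, and was called higher after rescaling, at 1.05. The interaction of cre-1 was -1.78 ± 0.19 (adjusted p = 8.5e-07). Its level was 42.5, 34.3 and 36.7 FPKM in wild type and 75.8, 64.9 and 67.6 in Δclr-3, a difference of 0.86 ± 0.14 that was called after rescaling only, whereas its values on clr-3 loss in the os-2 mutant were the lower ones. Of the 11 conidiation genes, 1 had an interaction called higher, con-10 at 1.83 ± 0.37. It was called lower for 3, fl at -1.46 ± 0.21, csp-2 at -1.30 ± 0.20 and con-6 at -1.11 ± 0.33. Of all genes, 1.95% had a higher and 2.67% a lower interaction.

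A further set of genes rose on clr-3 loss in wild type by more than they did in the os-2 mutant. There were 78 genes called higher on clr-3 loss in wild type whose interaction was called lower. Of the 78, 13 were called higher in the os-2 mutant and 1 lower, where 3.06% and 4.57% of all genes were. In 75 of the 78 the mean in Δos-2 was above that in wild type, with a median ratio of 4.56. The interaction itself adds the wild type level and subtracts that of Δos-2, so the choice of the set favours this direction. The share of all genes with a higher mean in Δos-2 was not counted. The count of 75 is therefore only a description of the set. NCU04276 (chromosome V, 5467674 to 5469105) stood at 46.3, 60.4 and 92.0 FPKM in wild type, 5522, 5749 and 5409 in Δclr-3, 5934, 6679 and 7409 in Δos-2 and 11544, 9883 and 13118 in the double mutant. Its level was thus high in each group but wild type, with an interaction of -5.64 ± 0.66 (adjusted p = 2.05e-06). NCU16673 stood at 6.22, 10.9 and 8.76 FPKM in wild type, 1622, 1454 and 1471 in Δclr-3, 907, 1119.6 and 1472 in Δos-2 and 4095, 3874 and 4930.2 in the double mutant, with an interaction of -5.43 ± 0.65. For NCU01871 the means were 21.0, 999, 1271 and 1576 FPKM in the same order, and its interaction was -5.20 ± 0.54.

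**Figure D4:**
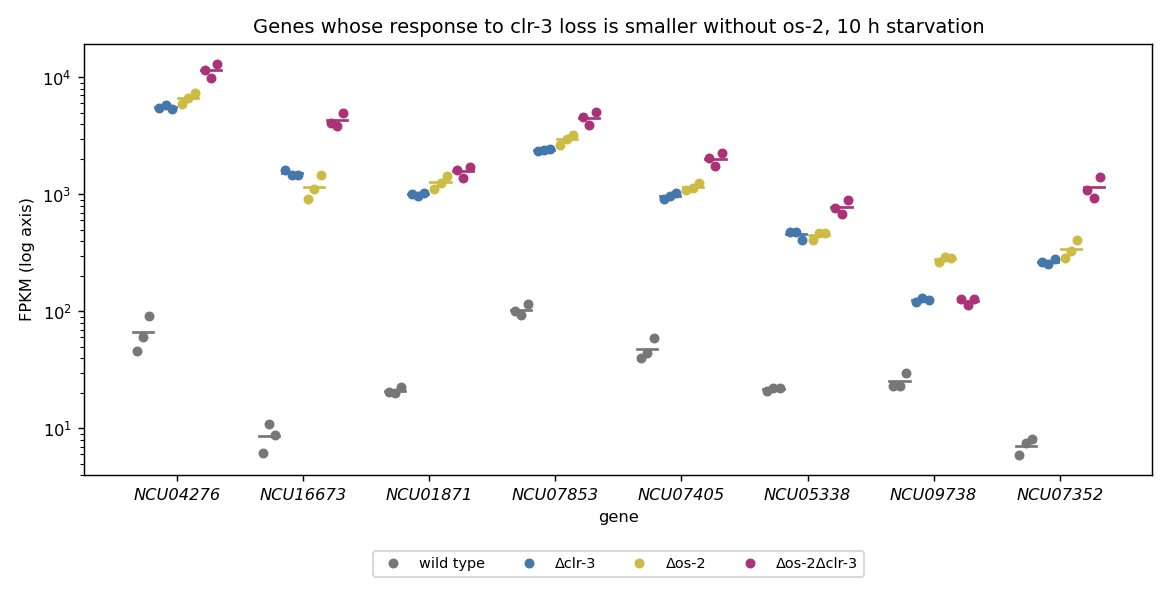
FPKM (log axis) of the 8 genes with the most negative called interaction with wild type among those that reach 10 FPKM in 1 library, in each of 3 libraries (points) with the group mean (line), for wild type, Δclr-3, Δos-2 and Δos-2Δclr-3. In all 8 the wild type libraries are the lowest, for NCU04276 at a mean of 66.2 FPKM against 6674 in Δos-2.

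NCU07853, NCU07405, NCU05338 and NCU07352 likewise had wild type levels far below those of the other 3 groups, with interactions of -3.91 to -3.29. In the os-2 mutant clr-3 loss called NCU16673 and NCU07352 higher under both scalings, NCU04276, NCU07853, NCU07405 and NCU05338 after rescaling only, and NCU01871 under neither. NCU09738 differed: it rose on clr-3 loss in wild type, from 23.2, 22.9 and 29.7 to 119.7, 131 and 126 FPKM, and was lower on clr-3 loss in the os-2 mutant, from 264, 294 and 285 to 128, 113 and 128 FPKM. The latter change, -1.19 ± 0.29, was called before rescaling only, and the interaction was -3.46 ± 0.41. The genes inv and aod-1, by comparison, also had Δos-2 values above all wild type values, but no called interaction. For inv the effect was 2.04 in wild type and 2.21 in the os-2 mutant, with an interaction of 0.17 ± 0.28; for aod-1 the interaction was -0.09 ± 0.43.

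On the other side of the interaction lay genes with a higher effect in the os-2 mutant. NCU09968 stood at 29.1, 32.2 and 32.0 FPKM in wild type and at or near 0 in Δclr-3, where its mean was 0.0114. In the os-2 mutant it stood at 14.0, 13.7 and 14.4 FPKM with clr-3 and 9.78, 9.23 and 9.46 without it. Its near absence in the Δclr-3 libraries was therefore not seen in the double mutant, and the interaction was 4.47 ± 0.10. NCU05131 fell on clr-3 loss in wild type (-1.60 ± 0.20) and gave 0.90 ± 0.20 in the os-2 mutant, called higher after rescaling only; the interaction was 2.50 ± 0.28. NCU10040 was unlike both. It had means of 276 FPKM in wild type and 284 in Δclr-3, 7.96 in Δos-2 and 61.2 in the double mutant, so it was lower in Δos-2 and rose there on clr-3 loss by 2.82 ± 0.25, with an interaction of 2.80. NCU07235 and NCU09416 rose by 2.71 ± 0.15 and 4.83 ± 0.21 in the os-2 mutant, with interactions of 2.60 and 2.84. NCU06607 rose from 3.27, 3.08 and 2.58 to 354, 459 and 277 FPKM, with an interaction of 2.59 ± 0.33.

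The os-1 mutant gave the sharpest contrast. There clr-3 loss called 241 genes (3.01%), 174 higher (2.17%) and 67 lower (0.836%), and after rescaling 255 (3.18%), 232 higher (2.9%) and 23 lower (0.287%). In Δos-1 the loss of clr-3 left cbh-1 at 29.8, 32.1 and 46.3 FPKM, against 35.2, 54.8 and 25.9 with clr-3, overlapping groups and a log2 fold change of -0.06 ± 0.23. For gh6-2 the change was -0.01 ± 0.30, and for cdh-1 -0.17 ± 0.20. The gene clr-2 rose in Δos-1 by 2.03 ± 0.14, to 7.78, 8.65 and 8.98 FPKM, a level far below the double mutant without os-2. The effect in the os-2 mutant minus that in the os-1 mutant was called for 684 genes (8.54%), 240 higher (3.0%) and 444 lower (5.54%), and after rescaling for 632 (7.89%), 327 higher (4.08%) and 305 lower (3.81%). It was called higher for 11 of 12 cellulose genes, 10 of 13 LPMO and cellobiose dehydrogenase genes and all 3 members of the cellodextrin transporter list. The difference was 9.95 ± 0.70 for gh61-4, 9.68 ± 0.42 for gh6-2, 9.04 ± 0.36 for gh5-1, 8.95 ± 0.33 for cbh-1 and 3.74 ± 0.20 for clr-2. The cellulase response to clr-3 loss thus differed between strains lacking 2 different proteins of 1 cascade. Of the conidiation genes, 7 of 11 had a lower and 1 a higher difference between these backgrounds.

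In the cre-1 mutant the effects on cellobiohydrolase genes lay between those in the os-1 mutant and those in wild type. In all, 1137 genes (14.2%) were called there, 246 higher (3.07%) and 891 lower (11.1%), and after rescaling 648 (8.09%), 500 higher (6.24%) and 148 lower (1.85%). Loss of clr-3 raised cbh-1 from 26.6, 32.2 and 26.8 to 837, 822 and 602 FPKM (4.66 ± 0.23), gh6-2 by 3.88 ± 0.30 and clr-2 by 2.05 ± 0.14, while cdh-1 gave 0.36 ± 0.20 and was not called. The effect in the os-2 mutant minus that in the cre-1 mutant was called for 647 genes (8.08%), 360 higher (4.49%) and 287 lower (3.58%), and after rescaling for 681 (8.5%), 290 higher (3.62%) and 391 lower (4.88%). All 12 cellulose genes tested were among those called higher, as were 10 of 13 LPMO and cellobiose dehydrogenase genes. The difference was 6.36 ± 0.40 for gh11-2, 6.32 ± 0.34 for gh6-3, 5.92 ± 0.36 for gh5-1 and 5.78 ± 0.42 for gh6-2. Genes that fell in the os-2 mutant led the negative differences. NCU04635, NCU03011 and NCU00290 rose in the cre-1 mutant, by 1.40, 1.24 and 1.72, and NCU09274 gave 0.78, called there after rescaling only. The differences were -3.86 ± 0.15 for NCU04635, -3.72 ± 0.40 for NCU03011, -3.51 ± 0.40 for NCU09274 and -3.46 ± 0.29 for NCU00290. The 3 interactions share the libraries of the os-2 mutant and its double mutant and are not independent of each other.

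**Figure D5:**
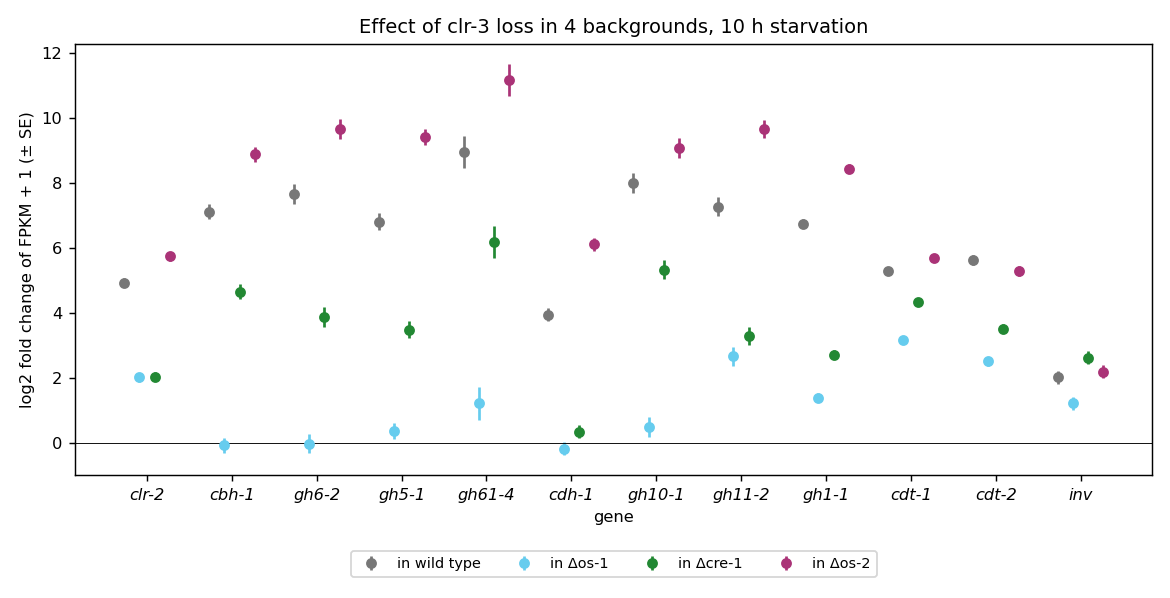
Log2 fold change of FPKM + 1 on clr-3 loss (y axis, ± SE) for 12 genes in wild type, Δos-1, Δcre-1 and Δos-2 backgrounds, 3 against 3 libraries each. For cbh-1 the effect is 7.13, -0.06, 4.66 and 8.89 in that order.

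Finally, the response was set beside that of wild type to cellulose. At 4 h, in other libraries of the study, 870 of 8268 genes (10.5%) were called between wild type on Avicel, a microcrystalline cellulose, and wild type without carbon, 252 of them higher on Avicel (3.05%) and 618 lower (7.47%). Of the 233 Avicel-induced genes tested at 10 h, 121 (51.9%, against 3.06% of all genes) were higher on clr-3 loss in the os-2 mutant, where no cellulose was given, and 4 were lower, with a median log2 fold change of 1.11. After rescaling the counts were 141 and 2. The filter spans the 24 libraries at 10 h and can admit a gene through a group in which it is high. Avicel-induced genes under the filter are not among the 233, which can raise the percentage. Replicate 1 of wild type on Avicel stood apart, with an implied depth of 5100000 fragments, a median of 9.78 FPKM and 975 genes at 0, where the other 2 libraries had 19400000 and 18300000 fragments, medians of 14.0 and 13.5 FPKM and 585 and 592 genes at 0. Without it 269 genes were higher on Avicel, 228 of them among the 252, and 124 of the 251 tested at 10 h (49.4%) were higher in the os-2 mutant and 4 lower. Leaving out each of the 6 wild type libraries at 4 h in turn, a check chosen after the data were seen, gave 240 to 279 Avicel-induced genes, 113 to 132 of them higher in the os-2 mutant. The 121 genes made up 49.4% of the 245 genes that rose. In wild type at 10 h, clr-3 loss raised 100 of the 233, where 2.93% of all genes were higher. The interaction with wild type was called higher for 58 and lower for 3, where 1.95% of all genes were higher and 2.67% lower.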

How the data were processed

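RNA from 42 Neurospora crassa cultures was sequenced, and the analysis uses the 24 libraries of the 8 groups at 10 h and, for the Avicel list, those at 4 h. The authors deposited FPKM values per gene with lower and upper bounds for each library, and a whole-series FPKM table; no counts were used here. HISAT2 2.0.5 and Cufflinks 2.2.1 were used per the submitters' processing notes, which give no roles; filters and strand settings are not given there. Gene loci in the files matched the NC12 assembly for 9729 of 9729 genes. Without stated strand, reads of overlapping genes cannot be told apart, and close copies may share reads. Of 9758 genes, 12 were dropped because 61 values carried a status other than OK, which left 9746. Fragment depth was inferred from the width of the bounds and covers counting error only; its exact value is unknown.

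From the deposited per-library FPKM, log2(FPKM + 1) was fitted with limma 3.58.1 in R 4.3.3 (empirical Bayes with a trend), 1 term per group over all 24 libraries, for 8013 genes whose mean was 1 FPKM or more. P-values were two-sided and adjusted by Benjamini-Hochberg over all genes tested. From the tests at 10 h clr-3 was left out, as were os-2, os-1 and cre-1 where an interaction involved their deletion. The Avicel test at 4 h left out no gene by name. The fitting code was tested on simulated data. Median-ratio rescaling, other pseudocounts (0.1 and 5), filters, the whole-series table, a replicate term and leaving out each library were tried. The 26 gene lists hold 275 identifiers, of which 220 have a symbol in RefSeq, after 9 were dropped for a differing symbol; no set test was run. The members and lists were chosen with earlier results of these data known. Genes named are a fixed set of regulators and cellulase genes, the 12 highest and 12 lowest changes without overlap that reach 10 FPKM in 1 library, up to 4 called members of each list, the largest interactions, and the 5 most abundant called genes in each direction. Members named beyond that rule to complete a list, and inv and aod-1 as counterparts to the interaction genes, were chosen after their values were seen. Replicates are biological triplicates per the design text.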

Additional observations from a re-analysis of the deposited data

Results flagged for a closer look

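The effect of clr-3 loss differed between backgrounds, by the test of the interaction, for the 32 results below, each on the log2(FPKM + 1) scale with adjusted p under 0.05. Against wild type, the effect in the os-2 mutant was higher for NCU09968 at 4.47, NCU09416 at 2.84, NCU10040 at 2.80, NCU07235 at 2.60, gh5-1 at 2.59, NCU06607 at 2.59, gh6-3 at 2.56 and NCU05131 at 2.50. It was lower for NCU04276 at -5.64, NCU16673 at -5.43, NCU01871 at -5.20, NCU07853 at -3.91, NCU07405 at -3.54, NCU05338 at -3.53, NCU09738 at -3.46 and NCU07352 at -3.29.

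Against the os-1 mutant it was higher for gh61-4 at 9.95, gh6-2 at 9.68, gh5-1 at 9.04 and cbh-1 at 8.95, and lower for NCU01871 at -4.02, NCU16673 at -3.89, NCU04276 at -3.32 and NCU09568 at -3.25. Against the cre-1 mutant it was higher for gh11-2 at 6.36, gh6-3 at 6.32, gh5-1 at 5.92 and gh6-2 at 5.78, and lower for NCU04635 at -3.86, NCU03011 at -3.72, NCU09274 at -3.51 and NCU00290 at -3.46.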

How the results depend on the processing

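The count of genes called in the os-2 mutant moved most with the pseudocount and the scaling. With a pseudocount of 5 it was 375, with 194 lower, and with 0.1 it was 827, with 549 lower; genes higher numbered 380 after median-ratio rescaling and 376 in the whole-series table, and genes lower 124 and 120. With a pseudocount of 5 the interaction with wild type called 242 genes, 92 of them higher, that with the os-1 mutant 454, with 159 higher and 295 lower, and that with the cre-1 mutant 392, with 187 higher. With a pseudocount of 0.1 these 3 interactions called 451, 816 and 862 genes, of which 199, 293 and 532 were higher. The small changes of os-1 and atp-2, neither called, reversed to 0.06 and 0.23 after rescaling and to 0.08 and 0.24 in the whole-series table. Leaving out 1 library gave 597 to 641 genes called, 242 to 250 higher and 352 to 391 lower. For the interactions it gave 348 to 413 (145 to 179 higher, 190 to 244 lower) against wild type, 620 to 735 (230 to 260 higher, 390 to 475 lower) against the os-1 mutant and 591 to 710 (333 to 404 higher, 257 to 307 lower) against the cre-1 mutant. Over all alternatives, 12 or 13 cellulose genes, 9 or 10 LPMO and cellobiose dehydrogenase genes and 14 to 17 hemicellulose genes were higher. All 3 members of the cellodextrin transporter list were higher too, while 2 to 5 conidiation genes were lower. Among the 98 genes named by the rule, 16 lost a call under at least 1 alternative, and the interactions chosen by size (16 with wild type, 8 with the os-1 and 8 with the cre-1 mutant) kept theirs wherever the gene was tested; other interactions were not examined in this way. Without 1 library, calls were lost for cry (-0.96), al-2 (-0.99 to -0.97), acu-3 (-0.99 to -0.89) and NCU07550 (-0.98 to -0.97), beside gpd-1, NCU09924 and NCU09734, and gained for NCU02074 (1.05) and rrg-2 (-1.02 to -1.0). Replicate numbers are shared across groups, and the main fit did not treat the libraries as paired. Same-numbered libraries of the groups compared correlated at -0.0207, 0.0314 and 0.272 across genes, and other pairs at -0.241 to 0.224. With 3 libraries in each group, these values cannot settle whether the numbers pair the libraries. With the replicate number as a block, 620 genes were called, 252 higher and 368 lower. The files hold no counts, and the counting error of genes near 1 FPKM was not estimated here. The cause of these shifts was not tested.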

Other observations

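Some of the genes that fell were neighbours on a chromosome. The groups given here were chosen after their values were seen. How many of the lower genes have a lower neighbour was not counted. NCU09274, NCU09273 and NCU09272 (chromosome VII, 114609 to 116893, chromosome VII, 118457 to 120636 and chromosome VII, 121451 to 125416, build NC12) gave -2.73 ± 0.28, -1.92 ± 0.29 and -2.27 ± 0.21 on the log2 scale, each lower under both scalings. In wild type the same genes gave -1.47, -0.98 and -1.16, and in the cre-1 mutant 0.78, 0.85 and 0.29. NCU06328 and NCU06327 (chromosome IV, 2898675 to 2901635 and chromosome IV, 2904592 to 2907521) gave -2.61 ± 0.18 and -2.63 ± 0.20, while NCU06326 beside them stood below 1 FPKM on average in both groups. The clr-3 effect on this pair in wild type was -0.90 and -0.29, neither called.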
